A study of Homo sapiens with 24 samples.

Results

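The metallothionein genes were followed in RNA-seq libraries of HEK293T cells, a human embryonic kidney cell line, together with MTF1 and SLC30A1. The members were chosen by gene name, with earlier results of these data known. They were the 6 metallothionein genes MT1E, MT1F, MT1G, MT1M, MT1X and MT2A, the transcription factor gene MTF1 and the zinc exporter gene SLC30A1, which makes 8 of the 58884 genes listed. All 8 were present in both expression tables. The values were TPM, a transcript level corrected for transcript length and given as a share of its library.

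The first table held 2 WT and 2 KO libraries, where KO denotes HEK293T cells in which SETD2, the enzyme that trimethylates histone H3 at lysine 36, had been disrupted on both alleles. The second table held 2 KO libraries, 2 with full-length SETD2 added to KO cells (SETD2 FL, residues 1 to 2564) and 2 with a construct without the N-terminal region (SETD2 C, residues 1404 to 2564). The WT and KO libraries are labelled untreated. Both constructs were driven by a CMV promoter, and RNA was taken 72 h after transfection, so in comparisons with KO the construct and the transfection cannot be told apart. SETD2 FL and SETD2 C libraries were both transfected. Nothing in the labels says whether replicates were separate cultures, so p-values measure only the spread between these libraries, which may be technical.

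Metallothioneins are small, cysteine-rich proteins that bind zinc and copper and, on exposure, cadmium. Their genes are switched on by metals through MTF1, a zinc-sensing factor that binds short promoter sequences called metal response elements (MREs), and also by glucocorticoids and oxidative stress. SLC30A1 carries zinc out of the cell across the plasma membrane and is itself a classical MTF1 target, so it is often read beside the metallothioneins. SLC39A proteins carry zinc in the opposite direction, into the cytosol.

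The 6 metallothionein members lie in one cluster on chromosome 16 (GRCh38), from 56608584 to 56684196, a span of 75.6 kb. MT2A (ENSG00000125148) occupies 56608584 to 56609497, MT1E starts at 56625475, MT1M at 56632659, MT1F (ENSG00000198417) at 56657731 and MT1X (ENSG00000187193) at 56682470, all on the plus strand. MT1G, from 56666730 to 56668065, is on the minus strand. MT2A, MT1X, MT1F and MT1M each have 3 exons and a coding region of 61 codons. MTF1 (ENSG00000188786, 11 exons) lies on chromosome 1 from 37809574 to 37859592, and SLC30A1 (ENSG00000170385, 2 exons) on the same chromosome from 211571568 to 211579161, both on the minus strand. The metallothionein transcripts resemble each other, so reads can fit more than one gene. Of the 330 windows of 75 bases (the read length) in the MT1X transcript, 119 (36.1%) also occurred in MT1G, the pseudogene MT1XP1 or ENSG00000259827, whereas none did for MT2A, MT1F or SLC30A1. MT1G and ENSG00000259827 were listed at 0 in all 10 libraries and MT1XP1 at 0 to 2.76 TPM, against at least 27.77 TPM for MT1X.

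RefSeq promoter sequence (GRCh38.p14) was at hand for 4 of the 8 members, MT2A, MT1X, SLC30A1 and MTF1. The 250 bases before the annotated start of the 3 of these with an MRE core are shown because the measured genes differ so much in this feature. Each is written on the strand of its gene, 5′ to 3′, and capitals mark matches to the MRE core, TGCACNC or TGCGCNC on either strand. The windows are chr16:56608334-56608583 for MT2A and chr16:56682220-56682469 for MT1X, on the plus strand, and chr1:211579162-211579411 for SLC30A1, on the minus strand.
MT2A: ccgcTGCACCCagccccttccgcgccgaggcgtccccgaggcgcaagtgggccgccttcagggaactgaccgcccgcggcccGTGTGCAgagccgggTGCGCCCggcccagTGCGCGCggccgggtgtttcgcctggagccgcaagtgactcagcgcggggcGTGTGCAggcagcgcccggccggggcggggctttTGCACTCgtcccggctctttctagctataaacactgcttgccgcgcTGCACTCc
MT1X: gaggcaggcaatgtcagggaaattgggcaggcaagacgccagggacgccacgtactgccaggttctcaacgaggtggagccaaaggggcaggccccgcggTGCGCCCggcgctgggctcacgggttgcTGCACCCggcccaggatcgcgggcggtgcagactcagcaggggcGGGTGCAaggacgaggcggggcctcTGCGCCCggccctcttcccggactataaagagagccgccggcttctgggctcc
SLC30A1: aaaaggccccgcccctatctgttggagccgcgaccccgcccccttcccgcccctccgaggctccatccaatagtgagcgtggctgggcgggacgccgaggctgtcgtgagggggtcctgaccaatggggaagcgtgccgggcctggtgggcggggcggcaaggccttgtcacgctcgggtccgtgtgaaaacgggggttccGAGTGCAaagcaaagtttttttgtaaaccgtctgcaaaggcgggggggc
MT2A held 7 MRE cores, MT1X held 4, SLC30A1 held 1 and MTF1 held 0. Among 35116 RefSeq windows of the same length, 24.8% held at least 1 core, 0.37% at least 4 and 0.0313% at least 7. A TATAAA box lay from -29 to -24 in MT2A and from -30 to -25 in MT1X, and 10.7% of all windows held one. The MT2A window also held a match to the AP-1 motif TGANTCA, from -104 to -98, which 6.57% of windows held. The GC box GGGCGG, found in 42.6% of windows, was matched 6 times in SLC30A1 and 2 times each in MT2A and MT1X, where the match at -82 in MT1X overlaps an MRE core. The hypoxia core ACGTG was matched 1 time in MT1X and in 18.5% of windows. These matches describe letters, not bound sites. Other metallothionein genes had such windows without a measured transcript: MT1H, which is no member, held 8 cores and was listed at 0 in all 10 libraries.

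**Figure D1:**
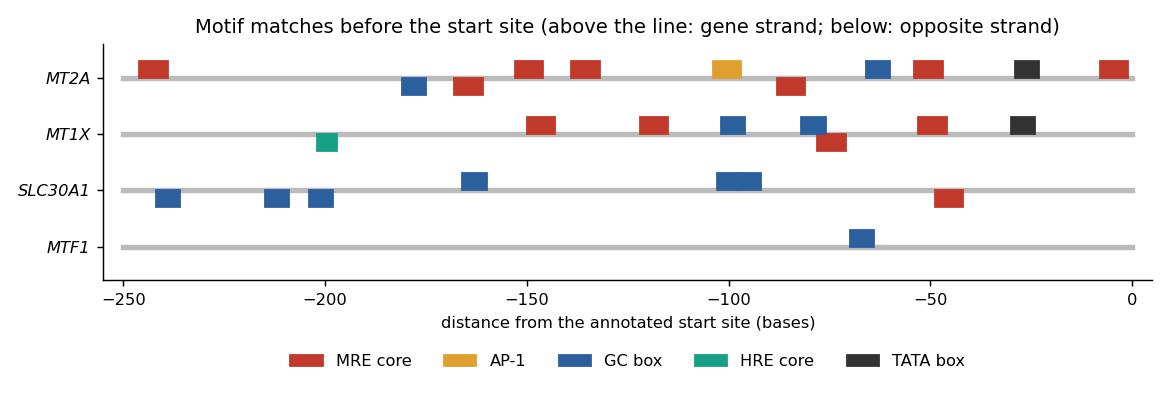
Motif matches in the 250 bases before the annotated start site of MT2A, MT1X, SLC30A1 and MTF1, drawn to scale by distance in bases, with matches on the gene's strand above each line and on the opposite strand below. Red boxes are MRE cores: 7 in MT2A, 4 in MT1X, 1 in SLC30A1 and 0 in MTF1.

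The targeted gene was checked first. SETD2 TPM was 12.62 and 14.82 in the WT libraries and 16.19 and 16.31 in the KO libraries of the first table. Its level thus did not tell the libraries labelled KO from WT as a loss of transcript, and the direction of comparisons between WT and KO was taken from the labels. For the second table it was 11.99 and 12.15 TPM in KO, 439.26 and 421.96 in the SETD2 FL libraries and 1329.05 and 1264.32 in the SETD2 C libraries. The SETD2 FL and SETD2 C libraries thus also differed in SETD2 TPM, by 1.46 on the log2 scale (SE 0.06, adjusted p = 7.06e-06, limma). TPM is corrected for transcript length and SETD2 C is the shorter construct. Whether the amounts of the construct transcripts differed can therefore not be told from these values. Of 5 genes fixed as HEK293T markers all were expressed, PAX2 only at 0.99 to 2.21 TPM. Their sum, mostly VIM and NEFM, was 651.69 to 1328.42 TPM. NEFM was higher with SETD2 C than with KO (limma, adjusted p of at most 0.05). By the same test NEFM and VIM were higher and CDH2 lower with SETD2 C than with SETD2 FL, and LIN28B was higher in KO than in WT. Of 7 markers of other cell types, PTPRC, CD3E, ALB, PECAM1 and MLANA stayed at or under 0.38 TPM, with PTPRC at 0 in every library outside SETD2 C and MLANA at 0 in both SETD2 C libraries. COL1A1 and EPCAM were present at low levels and both were higher with SETD2 C than with KO and than with SETD2 FL. The summed level of the 7 markers was 7.61 to 8.06 TPM in KO of the second table, 8.76 to 10.43 after SETD2 FL and 14.31 to 16.03 after SETD2 C, and 7.71 to 8.51 in WT and 11.67 to 11.96 in KO of the first table. The part of this rise in the results below was not tested. TPM has a fixed sum, so depth is unknown, and genes above 0 numbered 24306 to 25440 in KO and SETD2 FL libraries of the second table and 26139 to 27104 with SETD2 C.

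HEK293T cells in these libraries expressed a small part of the family. MT2A made up 48.4% to 62.6% of the summed TPM of the metallothionein members, MT1X 35.6% to 48.3% and MT1F 1.56% to 3.77%. MT1E and MT1G were listed at 0 in all 10 libraries. MT1M was at 0 in 9 of them and at 0.15 TPM in KO replicate 4 of the second table. Of 15 other metallothionein genes and pseudogenes, 14 were listed and 10 of those were at 0 in all 10 libraries, MT1A, MT1H and the brain-enriched MT3 among them. None of the 14 could be tested, which took a protein-coding or lncRNA gene with 2 or more libraries of a table at 0.5 TPM or above. Of the 8 members, MT2A, MT1X, MT1F, SLC30A1 and MTF1 passed that filter in both tables, and MT1E, MT1G and MT1M did not.

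MT2A, the main metallothionein of most human tissues, was the most abundant of the family in every library. Its TPM was 42.85 and 50.17 in WT, 49.64 and 57.85 in KO of the first table, 66.12 and 59.14 in KO of the second, 72.64 and 69.09 after SETD2 FL and 154.52 and 150.01 after SETD2 C. Within the second table both SETD2 C libraries lay above those of KO and SETD2 FL, and in the first table WT and KO overlapped. By limma, 21.1% of all genes tested in the second table were higher with SETD2 C than with KO. The share of all genes whose libraries lay apart in this way was not taken.

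MT1X, a neighbouring gene of the same class, came close behind. Its TPM was 27.77 and 28.56 in WT, 34.17 and 36.53 in KO of the first table, 60.02 and 51.56 in KO of the second, 49.00 and 52.76 after SETD2 FL and 131.81 and 149.64 after SETD2 C. Within the second table both SETD2 C libraries again lay above those of KO and SETD2 FL, which overlapped. In the first table WT lay below KO, without passing the test given below. How many of all genes had libraries that lay apart in either way was not counted. MT1X reached 0.569 to 0.688 of the MT2A level in the first table, 0.872 and 0.908 in KO of the second, 0.675 and 0.764 after SETD2 FL and 0.853 and 0.998 after SETD2 C.

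MT1F was expressed at a far lower level with the same order of groups as MT2A. Its TPM was 1.12 and 1.45 in WT, 1.60 and 1.91 in KO of the first table, 4.30 and 3.58 in KO of the second, 4.77 and 4.46 after SETD2 FL and 10.10 and 10.22 after SETD2 C. Within the second table both SETD2 C libraries lay above those of KO and SETD2 FL. In the first table WT again lay below KO, without passing the test given below. By limma, 21.1% of all genes tested in the second table were higher with SETD2 C than with KO. The share of genes with libraries apart was again not taken.

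Summed over the 6 metallothionein members, TPM was 71.74 and 80.18 in WT, 85.41 and 96.29 in KO of the first table, 130.44 and 114.43 in KO of the second, 126.41 and 126.31 after SETD2 FL and 296.43 and 309.87 after SETD2 C. In TPM as deposited, the sum with SETD2 C was 2.48 times that in KO and 2.40 times that with SETD2 FL. The sum with SETD2 FL was 1.03 times that in KO, and the sum in KO 1.20 times that in WT. The order of the groups in the second table was therefore KO and SETD2 FL, which overlapped, then SETD2 C. The scaling factors that divide each library in the tests below were 1.06 and 1.07 for SETD2 C and 0.966 and 0.957 for KO. Scaling thus lowers the ratio of SETD2 C to KO.

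SLC30A1 and MTF1 were low-level transcripts with a much narrower range. SLC30A1 TPM was 3.01 and 3.85 in WT, 3.80 and 4.20 in KO of the first table, 5.33 and 5.36 in KO of the second, 6.70 and 6.15 after SETD2 FL and 7.93 and 7.74 after SETD2 C. MTF1 TPM was 2.17 and 3.25 in WT, 4.70 and 4.15 in KO of the first table, 2.20 and 2.05 in KO of the second, 2.38 and 2.62 after SETD2 FL and 2.75 and 2.83 after SETD2 C. For both genes the means of the 3 groups of the second table were ordered KO, SETD2 FL, SETD2 C in TPM as deposited. That TPM is not scaled between libraries, and on scaled TPM neither gene passed between SETD2 C and SETD2 FL, as given below.

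**Figure D2:**
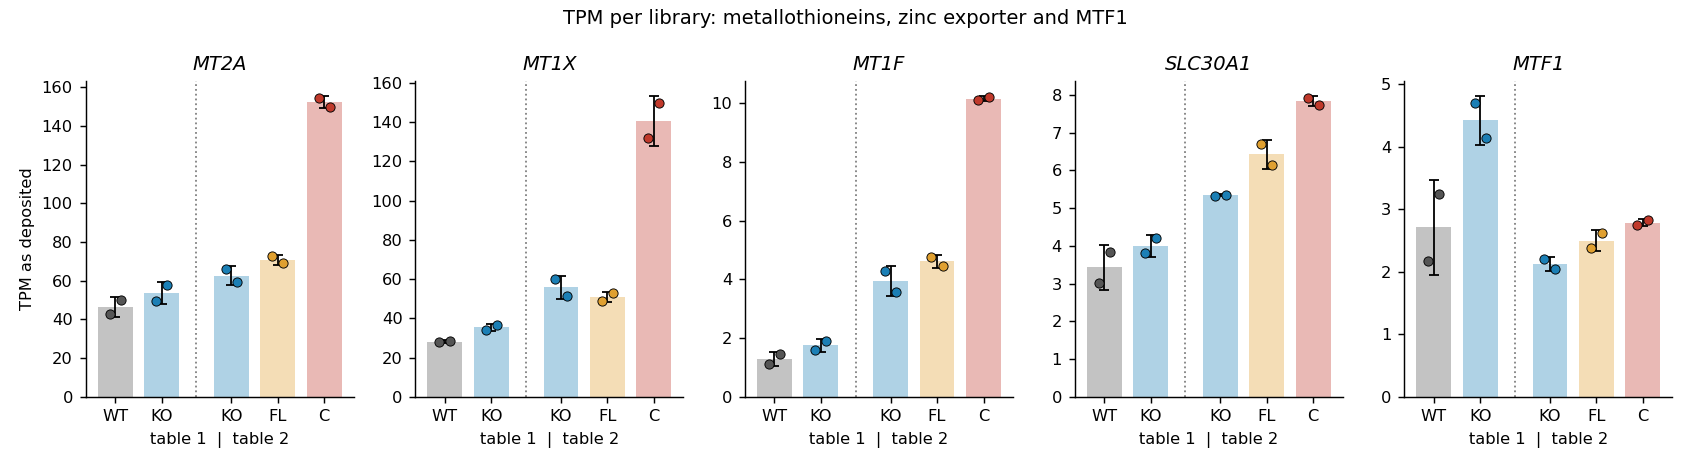
TPM as deposited of MT2A, MT1X, MT1F, SLC30A1 and MTF1 in each library (points), with the mean (bars) and SD (error bars, n = 2 libraries), the first table left and the second right of the dotted line. MT2A, MT1X and MT1F stand out in the SETD2 C libraries, for example MT2A at 154.52 and 150.01 TPM, while SLC30A1 and MTF1 span a narrow range.

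The comparison of SETD2 C with KO sets cells transfected with the construct lacking the N-terminal region against untreated KO cells. It therefore holds construct and transfection together. MT2A, MT1X and MT1F, the 3 expressed metallothioneins, each rose by more than 2-fold with SETD2 C. On log2(scaled TPM + 0.5), a scale that understates changes of low genes, MT2A was higher by 1.13 (SE 0.07, 95% interval 0.97 to 1.29, adjusted p = 5.1e-05, limma), MT1X by 1.18 (SE 0.08, interval 0.99 to 1.38, adjusted p = 0.000101) and MT1F by 1.13 (SE 0.11, interval 0.88 to 1.38, adjusted p = 0.000408). The 3 values lie within one another's intervals. Linear folds were 2.19 for MT2A, 2.27 for MT1X and 2.19 for MT1F.

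SLC30A1, the exporter, also rose with SETD2 C against KO, by a smaller 0.37 (SE 0.09, interval 0.16 to 0.59, adjusted p = 0.018, limma). That call rests on every library: it was lost when any 1 of the 4 was left out, with adjusted p from 0.0617 to 0.0765. MTF1, which encodes the factor itself, differed by 0.20 (SE 0.12, interval -0.07 to 0.47, adjusted p = 0.207, limma) and did not pass, and its value turned to -0.07 under quantile normalization. Thus 4 of the 5 tested members were higher at an adjusted p of at most 0.05, where 21.1% of the 15933 genes tested were higher and 15.1% lower. At 2-fold and above it was 3 of 5 against 3.75% of all genes. The members were chosen with earlier results of these data known, and those 3 are related genes of one cluster. These counts therefore describe the members and test nothing. The wide change across the transcriptome puts the metallothioneins at ranks 380 (MT1X), 440 (MT1F) and 444 (MT2A) from the highest fold, inside a large set of genes that rose as much or more.

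The comparison of SETD2 C with SETD2 FL sets 2 transfected groups side by side. MT1X was higher with SETD2 C by 1.33 (SE 0.08, interval 1.13 to 1.52, adjusted p = 5.17e-05, limma), MT2A by 0.97 (SE 0.07, interval 0.81 to 1.13, adjusted p = 9.47e-05) and MT1F by 0.94 (SE 0.11, interval 0.69 to 1.19, adjusted p = 0.000715). MT1X passed 2-fold and the other two metallothioneins fell just short of it, with intervals that span it. SLC30A1 (0.15, interval -0.07 to 0.37, adjusted p = 0.246, limma) and MTF1 (0.03, interval -0.24 to 0.30, adjusted p = 0.875) did not pass. Thus 3 of the 5 members were higher, where 21.4% of all genes were higher and 16.8% lower, and 1 of 5 at 2-fold, where 3.36% of all genes were. Here too the counts only describe members that were chosen with earlier results known.

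The comparison of SETD2 FL with KO sets cells transfected with the full-length construct against the same untreated KO cells. None of the 5 passed between SETD2 FL and KO, where 0.176% of all genes were higher and 0.0314% lower (limma). MT2A differed by 0.16 (interval -0.0023 to 0.32, adjusted p = 0.319), MT1X by -0.15 (interval -0.34 to 0.05, adjusted p = 0.429) and MT1F by 0.19 (interval -0.06 to 0.44, adjusted p = 0.431). SLC30A1 differed by 0.23 (interval 0.01 to 0.44, adjusted p = 0.301) and was the 1 member with an unadjusted p under 0.05, which 15.9% of all genes had. The intervals of the 3 metallothioneins end below 1, so a 2-fold rise lay outside them, while changes of up to 0.44 stayed inside. MT1X was the 1 member with a negative value.

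Libraries labelled KO were set against WT in the first table, a contrast that the labels define and that the SETD2 transcript level did not show. None of the 5 members passed, where 1.32% of 14746 genes were higher and 3.17% lower (limma). MTF1 had the largest value of the members, 0.52 (SE 0.14, interval 0.18 to 0.87, limma, unadjusted p = 0.00859, adjusted p = 0.0886). MTF1 was the 1 member with an unadjusted p under 0.05, which 24.9% of all genes had. MT1F differed by 0.24 (interval -0.13 to 0.62), MT1X by 0.19 (interval -0.03 to 0.42), SLC30A1 by 0.09 (interval -0.20 to 0.38) and MT2A by 0.08 (interval -0.15 to 0.30), with adjusted p from 0.257 to 0.693. All 5 values were positive, but MT2A turned to -0.04 without KO replicate 2.

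**Figure D3:**
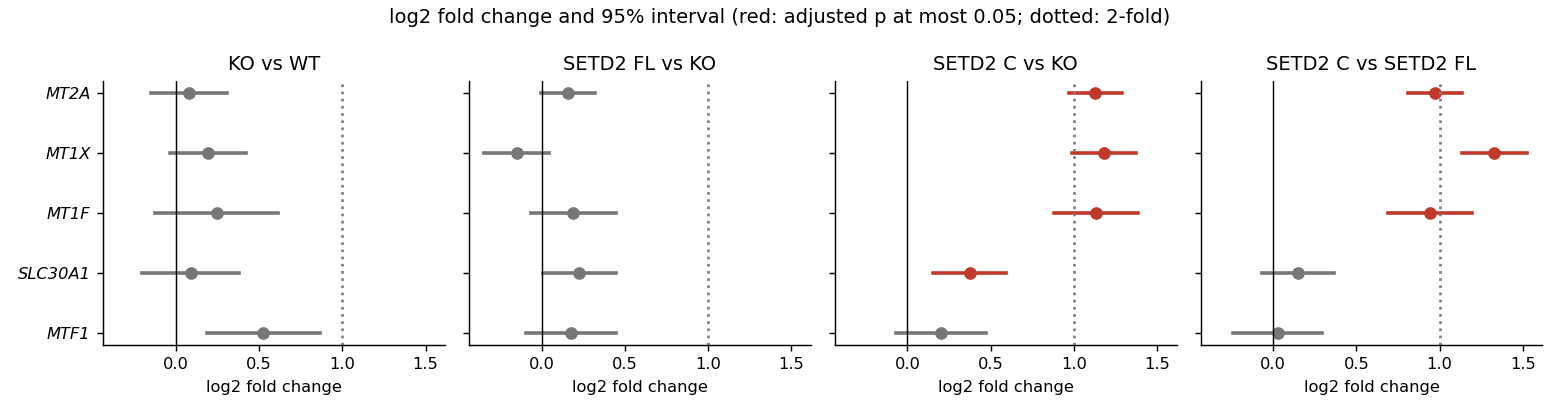
log2 fold change (points) and 95% interval (lines) from limma for 5 members in the 4 comparisons, with red for an adjusted p of at most 0.05 and the dotted line at 2-fold. MT2A, MT1X and MT1F lie between 0.94 and 1.33 in both comparisons of SETD2 C and between -0.15 and 0.24 in the other two comparisons.

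Among zinc transport genes outside the members, those that passed against KO were lower with SETD2 C. Of 11 tested SLC39A importers, 0 were higher and 5 lower with SETD2 C than with KO (limma, adjusted p of at most 0.05, and likewise 0 and 5 at an unadjusted p under 0.05), with a median of -0.12 against 0.05 over all genes, of which 21.1% were higher and 15.1% lower. The median rose to 0.02 without scaling, where 3 were lower and 0 higher, and 4 were lower and 0 higher under quantile normalization. SLC39A4, the intestinal zinc importer mutated in acrodermatitis enteropathica, was 41.90 and 40.90 TPM in KO, 43.26 and 46.96 after SETD2 FL and 22.17 and 21.03 after SETD2 C. It fell by 1.07 on the log2 scale against KO (SE 0.06, adjusted p = 3.39e-05, limma) and by 1.17 against SETD2 FL (adjusted p = 1.98e-05).

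SLC39A11 fell by 0.65 (SE 0.11, adjusted p = 0.00341, limma) and SLC39A3 by 0.45 (SE 0.06, adjusted p = 0.00138) with SETD2 C against KO. These and SLC39A4 passed under all 13 alternative settings. SLC39A14 (fell by 0.38) and SLC39A10 (fell by 0.31) completed the 5. SLC39A10 is one of 3 genes listed as further MTF1 targets and is known as one that MTF1 represses. Its call was lost under 8 of 13 alternatives, among them no scaling and quantile normalization. Against SETD2 FL, 7 of the 11 importers were lower and 0 higher, where 16.8% of all genes were lower and 21.4% higher.

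Of 7 tested SLC30A exporters other than SLC30A1, 0 were higher and 1 was lower with SETD2 C than with KO (limma), beside 21.1% higher and 15.1% lower over all genes. At an unadjusted p under 0.05, 1 was higher and 2 were lower, and without scaling 1 passed as higher and 0 as lower. The family member that was lower was SLC30A6 (fell by 0.31, SE 0.10, adjusted p = 0.0442, limma), and its call was lost under 8 of 13 alternatives. SLC30A10, a manganese exporter, lay highest at 0.42. It was at 0.29 to 0.35 TPM in KO, 0.42 to 0.47 after SETD2 FL and 0.63 to 0.68 after SETD2 C. SLC30A10 thus passed the filter only through the SETD2 C libraries, so its test supports nothing. The counts of exporters in the second table include it. In SETD2 FL against KO and in KO against WT, 0 of the 7 exporters and 0 of the 11 importers passed (limma). At an unadjusted p under 0.05, 3 importers were higher in the former and 2 exporters lower in the latter.

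**Figure D4:**
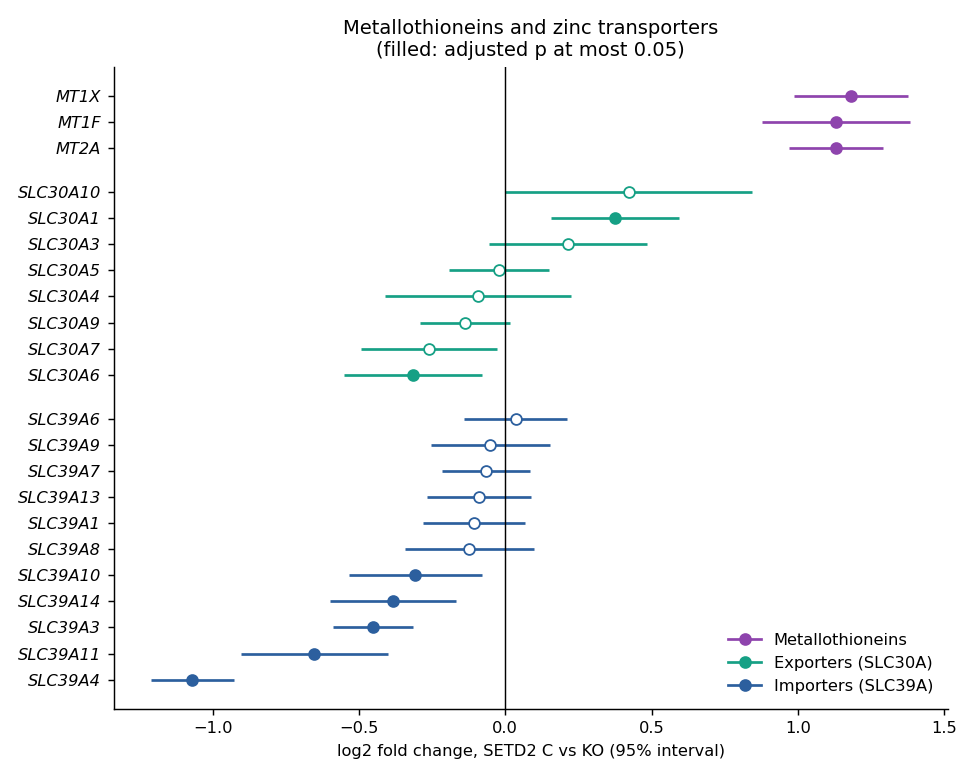
log2 fold change and 95% interval (limma) of SETD2 C against KO for the 3 expressed metallothioneins, 8 SLC30A exporters and 11 SLC39A importers, with filled points for an adjusted p of at most 0.05. The metallothioneins lie at 1.13 to 1.18, SLC30A1 at 0.37 and SLC39A4 lowest at -1.07. SLC30A10 passed the filter only through the SETD2 C libraries.

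The 3 further MTF1 targets on the list are not all known to be switched on by MTF1, as SLC39A10 is one that it represses. PGF, placental growth factor, rose with SETD2 C against KO by 0.78 (SE 0.08, adjusted p = 0.000589, limma), from 10.97 and 11.88 TPM to 21.27 and 22.93. GCLC, the catalytic subunit of glutathione synthesis, differed by 0.20 (adjusted p = 0.0501, limma) and SLC39A10 was lower. Against SETD2 FL, PGF and GCLC were higher and SLC39A10 lower with SETD2 C (limma, adjusted p of at most 0.05). Of all genes, 21.4% were higher and 16.8% lower in that comparison. The activity of MTF1 was not tested. In KO against WT, GCLC was higher by 0.58 (SE 0.09, adjusted p = 0.0204, limma).

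Copper genes gave 1 higher and 2 lower of 11 with SETD2 C against KO, where 21.1% of all genes were higher and 15.1% lower, and a median of -0.10 that turned to 0.05 without scaling. Such counts are near the background and say nothing particular about copper genes. COX17, a copper chaperone of cytochrome oxidase, rose by 0.32 (SE 0.05, adjusted p = 0.00298, limma). SCO2, which serves the same enzyme, fell by 0.74 (SE 0.07, adjusted p = 0.000428). ATOX1, the chaperone for the copper ATPases, was the third (fell by 0.19, adjusted p = 0.0405), and 8 of 13 alternatives ended that call.

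Iron genes gave 4 higher and 2 lower of 14, near the 21.1% higher and 15.1% lower of all genes, with a median of 0.04 against 0.05. The strongest was HMOX1, heme oxygenase, a stress-induced enzyme that frees iron from heme, at 29.79 and 26.63 TPM in KO, 52.33 and 53.20 after SETD2 FL and 84.17 and 77.89 after SETD2 C. It rose by 1.36 with SETD2 C (SE 0.07, adjusted p = 1.98e-05, limma) and by 0.87 with SETD2 FL (SE 0.07, adjusted p = 0.00756) against KO. HMOX1 thus passed in SETD2 FL against KO, where no metallothionein did, although that call was lost under 4 of 13 alternatives, including without KO replicate 4 and without SETD2 FL replicate 3, and the difference between the genes was not tested. It was also higher in KO than in WT, by 0.70 (SE 0.07, adjusted p = 0.00431). The ferritin genes FTL and FTH1 rose by 0.31 and 0.25 with SETD2 C and the transferrin receptor TFRC by 0.50. The ferrireductase STEAP3 (fell by 0.57) and the mitochondrial iron carrier SLC25A28 (fell by 0.56) were lower.

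Genes known to respond to glucocorticoids, which also act on MT2A, gave 3 higher and 0 lower of 6 with SETD2 C against KO, beside 21.1% higher and 15.1% lower over all genes, with a median of 0.20. DUSP1, a phosphatase that is also stress-induced, rose by 1.67 (SE 0.07, adjusted p = 8.39e-06, limma), from 22.64 and 24.00 TPM to 81.70 and 84.42. SGK1, a kinase of ion transport, rose by 1.76 (SE 0.12, adjusted p = 8.52e-05) and KLF9 by 0.29 (SE 0.07, adjusted p = 0.0134). The KLF9 call was lost without KO replicate 4 and without SETD2 C replicate 2. FKBP5 (-0.14, adjusted p = 0.149, limma) and TSC22D3 (0.10, adjusted p = 0.235), both classical targets of the hormone receptor, did not pass against KO. Against SETD2 FL, 4 of the 6 were higher with SETD2 C (SGK1, KLF9, DUSP1 and TSC22D3) and 1 was lower (FKBP5). Of all genes, 21.4% were higher and 16.8% lower in that comparison (limma). TSC22D3 was lower in KO than in WT (fell by 0.45, adjusted p = 0.0229).

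Genes near the metallothionein cluster on chromosome 16 were looked at in the same way. Of 12 other genes starting within 250 kb of the metallothionein members, 7 were tested and 2 were higher and 2 lower with SETD2 C than with KO, where 21.1% of all genes were higher and 15.1% lower, with a median of 0.05, as over all genes. Counts this small say nothing particular about these 7 genes. BBS2, a ciliary gene, rose by 0.36 (SE 0.06, adjusted p = 0.00356, limma). The other was the lncRNA AC106779.1, at 0.11 and 0.47 TPM in KO, 0.31 and 0.34 after SETD2 FL and 1.29 and 1.40 after SETD2 C. It passed the filter only through the SETD2 C libraries, the group where it is high, so its test supports nothing and its values are a description. OGFOD1, a hydroxylase gene, fell by 0.28 (SE 0.06, adjusted p = 0.00707) and the nuclear pore gene NUP93 by 0.23 (SE 0.05, adjusted p = 0.0132). The OGFOD1 call was lost under 1 of 13 alternatives, no scaling, and the NUP93 call under 6, among them no scaling, quantile normalization, without KO replicate 2 and without SETD2 C replicate 1. Without scaling 4 of the 7 were higher and 0 lower.

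Likeness to MT2A was measured over the 6 libraries of the second table as the root mean square (RMS) difference of centred log2 profiles, for 9776 protein-coding genes with a mean of at least 5 TPM. MT1F lay at 0.03, although it reached that mean only through the SETD2 C libraries, being under 5 TPM in KO and SETD2 FL, so no rank is read from it. MT1X lay at 0.18, with 100 genes nearer. The 5 nearest genes that are no members were SFXN3, a mitochondrial serine carrier of the sideroflexin family (0.06), CRIP2, a LIM domain gene (0.06), TMEM59L (0.07), DPYSL4 (0.07) and TMSB15A, a thymosin gene (0.08). SFXN3, for example, was 4.95 and 4.27 TPM in KO, 5.50 and 5.72 after SETD2 FL and 12.30 and 11.30 after SETD2 C. In the first table, which the measure did not use, MT2A differed by 0.08 between KO and WT. There TMSB15A (fell by 1.42, adjusted p = 0.00176, limma), DPYSL4 (fell by 0.85, adjusted p = 0.0124) and TMEM59L (fell by 0.78, adjusted p = 0.0343) were lower in KO, while SFXN3 (-0.43, adjusted p = 0.129) and CRIP2 (-0.04, adjusted p = 0.897) did not pass.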

How the data were processed

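RNA-seq libraries were made from HEK293T cells after rRNA depletion and polyA enrichment and read as 75 bp pairs. The authors aligned the reads to hg38 with STAR 2.6.1c and Ensembl 96 gene models and deposited TPM per gene from RSEM 1.3.0, without scaling between libraries. TPM hides depth, shares out reads between similar genes and falls for all genes where a few rise. The authors' own edgeR results and the H3K36me3 ChIP-seq were not used here.

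Each library was divided by a median ratio, taken over genes that reached 1 TPM in all libraries of its table. A pseudocount of 0.5 was added before taking log2. Protein-coding and lncRNA genes (GENCODE 44) at 0.5 TPM or above in 2 or more libraries entered limma 3.58.1 (R 4.3.3, eBayes with trend), with Benjamini-Hochberg adjustment over all genes of a table. The 6 libraries of the second table shared 1 fit, and tables were not tested against each other. A second, little-used SCO2 entry was kept out of the copper list. The procedure was tested on simulated data.

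Named were the members, at most 3 passing genes per list with the largest fold in SETD2 C against KO, and the 5 genes most like MT2A. SLC39A14, FTL, FTH1, TFRC, GCLC, SLC30A10, FKBP5, TSC22D3 and NUP93 were named beyond that rule after their values were seen. The members and lists were chosen with earlier results of these data known. Alternatives were pseudocounts of 0.1 and 1, other filters, no scaling, quantile normalization, rescaling without mitochondrial genes and SETD2, eBayes without trend, a replicate block, a fit of the 4 libraries compared and each library left out.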

Additional observations from a re-analysis of the deposited data

How the results depend on the processing

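MT2A, MT1X and MT1F passed in SETD2 C against KO under all 13 alternatives run, with lowest values of 1.06, 1.08 and 1.02 on the log2 scale, and in SETD2 C against SETD2 FL under all 13, with lowest values of 0.91, 1.24 and 0.86. No member passed in SETD2 FL against KO under any of them. In KO against WT, 1 member (MTF1) passed without scaling (0.64, adjusted p = 0.0375, limma) and without WT replicate 2 (0.67, adjusted p = 0.0384), so that the number of members higher ranged from 0 to 1 over the libraries left out. MT2A in KO against WT was -0.043 without KO replicate 2 and reached 0.202 with another library left out. MTF1 turned to -0.074 in SETD2 C against KO and to -0.23 in SETD2 C against SETD2 FL under quantile normalization, and in the latter ranged from -0.0080 (without SETD2 FL replicate 3) to 0.059 (without SETD2 FL replicate 4) over the libraries left out. SLC30A1 in SETD2 C against KO lost its call under quantile normalization (0.28, adjusted p = 0.0506, limma) and gained one in SETD2 C against SETD2 FL without scaling (0.27, adjusted p = 0.049). The cause was not tested. WT and KO share the numbers 1 and 2 only as numbers (r = 0.147 across genes between their replicate differences). With a replicate block, MTF1 in KO against WT stayed at 0.52 (adjusted p = 0.0778, limma) and 0 members passed, while the count over all genes moved from 194 higher and 467 lower to 442 and 827. The second table's groups share at most 1 number. Without scaling the median of all genes was 0.18 in SETD2 C against KO and 0.11 in KO against WT, and the share of higher genes among those that passed was 83.1% and 53.3%, against 58.3% and 29.3% with it and 46.9% for SETD2 C against KO under quantile normalization. Over all alternatives, genes higher numbered 20 to 477 in KO against WT (194 as reported), 2 to 57 in SETD2 FL against KO (28), 1734 to 5509 in SETD2 C against KO (3359) and 1868 to 5192 in SETD2 C against SETD2 FL (3411). Depth is unknown, so no counting error can be given for the low genes MT1F, MTF1 and SLC30A1.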

Other observations

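The libraries labelled KO and untreated differed between the tables, which were normalized separately and were not tested against each other. MT1F had a mean of 1.76 TPM in KO of the first table and 3.94 in KO of the second, a ratio of 2.25, where the ratio of SETD2 C to KO within the second table, also in TPM as deposited, was 2.58. MT1X had a ratio of 1.58 between the same KO groups, SLC30A1 1.34 and MT2A 1.17. MTF1 went the other way, from 4.43 to 2.13 TPM, a ratio of 0.48, and HMOX1 from 102.9 to 28.21 TPM, a ratio of 0.274. In TPM as deposited MT2A, MT1X, MT1F and SLC30A1 were thus higher, and MTF1 and HMOX1 lower, in the second set of KO libraries. The same ratio was not taken over all genes, so ratios such as 1.17 and 1.34 cannot be called particular to these genes.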
